A study of Homo sapiens with 9 samples.

Results

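The 10 genes described here, DCK, UCK1, UCK2, CDA, DCTD, SAMHD1, SLC29A1, RRM1, RRM2 and RRM2B, move nucleosides into cells, phosphorylate them or break them down. The genes were chosen by name from that role, with earlier results of these data known. They are 10 of the 23284 gene symbols in the data. RNA-Seq libraries were made from HT-29, an established human colon adenocarcinoma cell line with no engineered genotype. 5-Aza-deoxycytidine (5-Aza) was given to the cells at 5 µM or 10 µM over 5 days, and the cultures labelled 0 µM received only the solvent DMSO. Each dose had 3 cultures, which makes 9 libraries.

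As background, nucleoside analogs such as 5-Aza are carried into the cell by membrane transporters, and deoxycytidine kinase adds their first phosphate. After further phosphorylation 5-Aza is built into DNA, where it traps DNA methyltransferases and lowers methylation at CG sites. Cytidine deaminase inactivates the free nucleoside, deoxycytidylate deaminase acts on the monophosphate, SAMHD1 hydrolyses the triphosphate, and ribonucleotide reductase makes the cell's own deoxynucleotides. Uridine-cytidine kinases phosphorylate ribonucleosides, including the related drug azacytidine.

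At 5 µM, the estimates for CDA, SAMHD1 and RRM2 lay more than 2-fold above 0 µM, and that for DCTD more than 2-fold below. Those genes passed the test, while DCK, the first kinase for 5-Aza, did not. In a separate test of whether the difference exceeds 2-fold (limma treat), 0 of the 10 genes passed, so a change beyond 2-fold is not established. Without 0 µM replicate 3, the rises of SAMHD1 and RRM2 were 0.99 and 0.98 on the log2 scale, just under 2-fold. CDA showed 2.46 times and DCTD 0.476 times its 0 µM mean. At 10 µM, DCTD remained lower than at 0 µM, and CDA, at 0.292 times its 5 µM mean, was lower than at 5 µM. All values are FPKM, fragments scaled by transcript length and by a library term, and the deposited values are too large for the usual library term, so that only relative levels are read from them. Differences are on the log2(FPKM + 1) scale with the standard error (SE), and a gene is called when limma's p, adjusted over all genes tested by Benjamini-Hochberg, is at most 0.05 and the difference passes 1 in either direction.

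The promoters of 9 of the 10 genes were matched by symbol to RefSeq windows on the assembly GRCh38.p14. Because 5-Aza acts on methylation at CG sites, the 250 bases before the transcription start are shown for the 4 genes called at 5 µM against 0 µM, 5′ to 3′ with each CG in capitals. Methylation was not measured in these libraries. The windows are chr1:20588847-20589096 on the plus strand for CDA, chr20:36951709-36951958 on the minus strand for SAMHD1, chr2:10122318-10122567 on the plus strand for RRM2 and chr4:182917612-182917861 on the minus strand for DCTD, each at the start lying farthest upstream.
CDA: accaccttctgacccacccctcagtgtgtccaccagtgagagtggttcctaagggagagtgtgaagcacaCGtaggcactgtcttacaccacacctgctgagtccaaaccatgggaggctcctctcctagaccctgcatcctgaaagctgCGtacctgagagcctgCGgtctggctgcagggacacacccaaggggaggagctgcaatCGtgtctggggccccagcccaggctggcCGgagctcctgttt
SAMHD1: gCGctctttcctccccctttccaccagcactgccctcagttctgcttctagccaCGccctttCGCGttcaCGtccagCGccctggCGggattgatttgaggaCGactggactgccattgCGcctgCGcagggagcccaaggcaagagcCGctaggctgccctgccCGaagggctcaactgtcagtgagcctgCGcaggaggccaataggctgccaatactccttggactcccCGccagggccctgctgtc
RRM2: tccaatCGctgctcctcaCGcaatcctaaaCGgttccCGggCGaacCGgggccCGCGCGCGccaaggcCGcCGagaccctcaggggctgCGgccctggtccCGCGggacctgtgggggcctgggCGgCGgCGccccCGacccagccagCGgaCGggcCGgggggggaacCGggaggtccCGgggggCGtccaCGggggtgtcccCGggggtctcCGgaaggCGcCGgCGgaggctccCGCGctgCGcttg
DCTD: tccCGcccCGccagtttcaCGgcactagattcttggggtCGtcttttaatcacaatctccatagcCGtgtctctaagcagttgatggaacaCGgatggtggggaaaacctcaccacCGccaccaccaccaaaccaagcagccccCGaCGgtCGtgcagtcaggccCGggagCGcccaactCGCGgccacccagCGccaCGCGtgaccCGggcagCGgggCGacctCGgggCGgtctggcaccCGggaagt

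At the start lying farthest upstream, the CDA window held 5 CG pairs and was the sparsest of the 9, below the median of 11 over all 35114 RefSeq windows of this length. SAMHD1 had 14, RRM1 18, SLC29A1 19, DCTD 23, UCK2 24, UCK1 28, DCK 31 and RRM2 34. Windows at a second start held 27 in RRM2 and SLC29A1 and 40 in DCTD, so that the places of these genes in the order depend on the start. CDA, SAMHD1 and RRM1 come first in the order at either start. On both strands, CCAAT was present in the windows of 4 of the 9 genes (RRM1, RRM2, SAMHD1 and UCK2) and in 32.0% of all windows. The letters GGGCGG, which include a CG, were found in 6 of the 9 genes and in 42.6% of all windows. The letters TTTNGCGC, a form of the E2F motif that also holds a CG, matched none of the 9 and 1.51% of all windows.

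**Figure D1:**
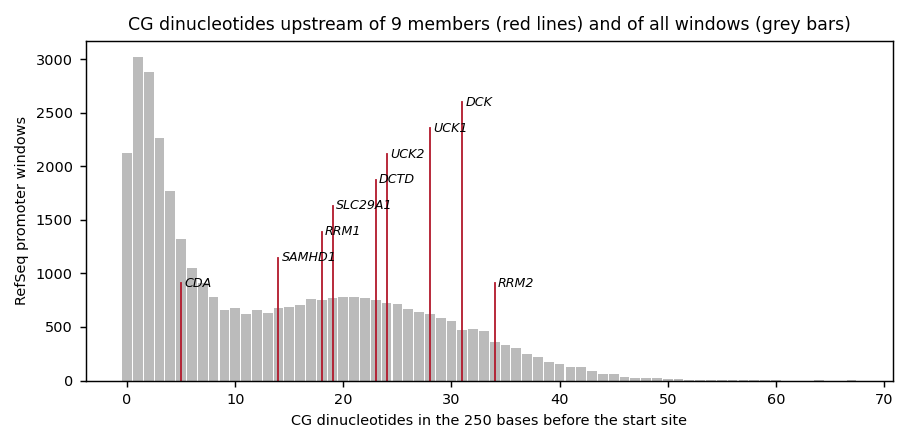
CG pairs in the 250 bases before the start of 9 genes (red lines; horizontal axis, number of CG pairs; the height of a line has no meaning) over the number of RefSeq windows with each count (grey bars, vertical axis), of 35114 in all. CDA, with 5, lies below the median of 11, and the other 8 genes lie above it.

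Against 0 µM, 5 µM gave 3 members called higher and 1 called lower out of 10, where 14.1% of the 20051 genes tested were called higher and 2.17% lower. By adjusted p alone 5 members were higher (CDA, SAMHD1, RRM2, RRM1 and SLC29A1) and 2 lower (UCK2 and DCTD), beside 21.3% and 17.7% of all genes. The median difference of the members was 0.38, that of all genes tested 0.14 and that of genes above 0 in all 6 libraries, as all members are, −0.04. At 10 µM against 0 µM, 0 members were called higher and 1 lower, with 4.07% and 3.4% of all 18928 genes called, and limma found 0 higher and 3 lower at an unadjusted p under 0.05, beside 11.3% and 24.2% of all genes. By adjusted p alone 0 were higher and 2 lower (UCK2 and DCTD), beside 5.39% and 9.71% of all genes. The members' median was −0.37, that of all genes −0.15 and that of genes above 0 in all 6 libraries −0.23. At 10 µM against 5 µM, 0 were called higher and 1 lower (CDA), with 0.129% and 4.82% of all 20085 genes called, and limma found 0 higher and 3 lower at an unadjusted p under 0.05, beside 2.84% and 22% of all genes. By adjusted p alone the counts were also 0 and 1, beside 0.319% and 5.85% of all genes, and the members' median was −0.41 beside −0.31 for all genes and −0.24 for those above 0. The first and last of these comparisons are those the study made. Comparisons that share a dose also share its libraries and are not independent. In a test of the hypothesis that the difference exceeds 2-fold (limma treat), none of these members passed.

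The deposited values do not place every library on one level. The 10 µM replicate 2 was the highest of its group for 10 of 10 members, and for 9 of 10 after median-of-ratios scaling, a factor per library taken from all genes. Its log2 factor was 0.06, whereas those of 10 µM replicates 1 and 3 were −0.27 and −0.24. The share of all genes highest in that library is not given here, so the counts are not read as a trait of the members. This scaling moved the median of genes above 0 by 0.24 in the comparison of 10 µM with 0 µM, by 0.20 in that of 10 µM with 5 µM, and by 0.04 in that of 5 µM with 0 µM. After it, 10 µM against 0 µM gave 2 members higher (SLC29A1, 0.55, adjusted p = 0.0155, and RRM1, 0.59, adjusted p = 0.0269) and 2 lower (UCK2, −0.47, adjusted p = 0.0159, and DCTD, −0.78, adjusted p = 0.00557) by limma's adjusted p alone, in place of 0 higher and 2 lower. The shares of all genes that pass after scaling are not given here, so this change is not read as a result about the members. Sequencing depth was estimated from the steps in low values and their relation to gene length, which 102 of 178 genes with clean steps followed within 15%, at 10790126 to 29623589 fragments per library, and the lowest estimate was that of 10 µM replicate 1. The members rested on between 98.3 (CDA) and 2912 (SAMHD1) estimated fragments in a library, which gives a counting error of 1.85% to 10.1%. All 10 colon epithelium markers were above 0 at each dose, with a summed FPKM of 8.29e+07 to 9.93e+07 at 0 µM, 3.52e+07 to 3.99e+07 at 5 µM and 2.75e+07 to 4.83e+07 at 10 µM. Most of the sum came from KRT8, with a mean of 3.94e+07 at 0 µM and 1.26e+07 at 5 µM, and KRT18, with 3.30e+07 and 1.06e+07. At 5 µM KRT8 (−1.65), KRT18 (−1.64) and GPA33 (−1.75) were called lower and CEACAM5 (1.59) higher, while EPCAM (−0.23) and CDH1 (−0.06) did not pass. LGALS4 (−0.87), CDX2 (−0.73), VIL1 (−0.47) and KRT20 (−0.46) were lower by limma's adjusted p alone. By that rule 7 of the 10 were lower and 1 higher, beside 17.7% and 21.3% of all genes. At 10 µM against 0 µM 3 were called lower (KRT20, CDX2 and GPA33) and 0 higher, beside 3.4% and 4.07% of all genes. The leukocyte list summed to between 4.56e+06 and 8.94e+06, most of it from LYZ, with CD3E listed at 0 in the 0 µM libraries. At 5 µM CD68 (2.42) and CD3E were called higher, and LYZ was lower by −0.99. The fibroblast and endothelium list summed to at most 12741 at 0 µM, to between 43277 and 56438 at 5 µM and to 22028 to 27991 at 10 µM, with COL1A2 listed at 0 at 10 µM. Of its 6 genes 5 were called higher at 5 µM and 0 lower, beside 14.1% and 2.17% of all genes. Among them COL1A2 and PDGFRB were listed at 0 in some of the controls. The part of these marker levels in the results below was not tested. In one culture, fewer cells expressing a gene and less RNA per cell cannot be told apart.

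**Figure D2:**
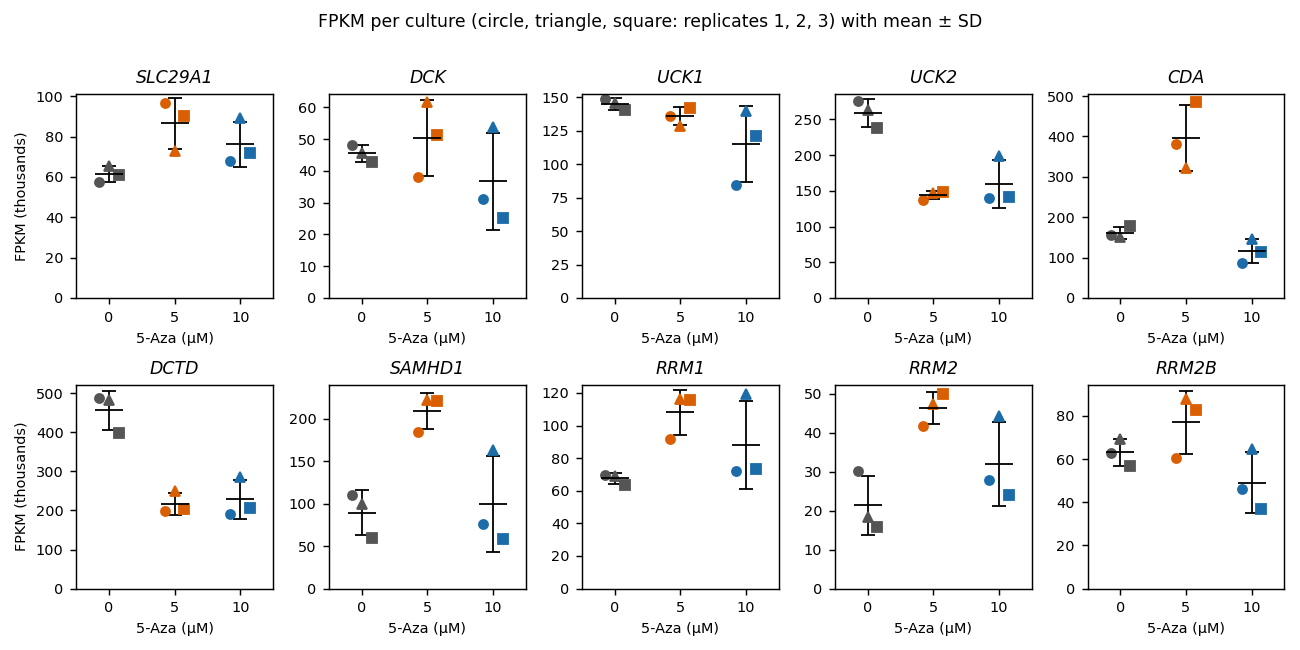
FPKM of each of the 10 genes in units of 1000 (vertical axis, linear from 0) by 5-Aza dose in µM (horizontal axis), with 1 symbol per culture (circle, triangle and square for replicates 1, 2 and 3) and bars for the mean ± SD (n = 3). CDA and SAMHD1 are highest at 5 µM, DCTD and UCK2 are lower at both doses, and in all 10 panels replicate 2 is the highest of the 10 µM cultures.

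Uptake was represented by SLC29A1, the equilibrative nucleoside transporter ENT1 (chromosome 6, 44187290 to 44201879, plus strand; positions here and below are those of GRCh37, the assembly also named hg19). Its FPKM was 57635, 65368 and 61045 in the 0 µM cultures, 96869, 72620 and 90024 at 5 µM, and 67952, 88969 and 72017 at 10 µM. Every treated culture lay above every control, and the 2 treated groups overlapped. SLC29A1 rose at 5 µM by a log2 difference of 0.49 (SE 0.13, limma adjusted p = 0.0250), short of 2-fold. It missed the threshold without 0 µM replicate 1 or 3 or 5 µM replicate 1 or 3, where limma's adjusted p ran from 0.0565 to 0.0885. At 10 µM the difference from 0 µM was 0.31 (SE 0.15, limma adjusted p = 0.193), with a 95% interval of −0.05 to 0.67.

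DCK (chromosome 4, 71858255 to 71896631, plus strand) adds the first phosphate to deoxycytidine and to 5-Aza. It measured 48129, 45808 and 42766 FPKM at 0 µM, 38028, 61702 and 51277 at 5 µM, and 31098, 53959 and 25194 at 10 µM. All 3 groups overlapped, and the spread grew from an SD of 2690 at 0 µM to 15193 at 10 µM (n = 3 each). The log2 difference was 0.12 at 5 µM (SE 0.18, limma adjusted p = 0.620, 95% interval −0.33 to 0.56) and −0.39 at 10 µM (SE 0.28, limma adjusted p = 0.359, 95% interval −1.05 to 0.28). Neither interval holds a doubling, while that at 10 µM reaches past a 2-fold fall. Without 10 µM replicate 2 the difference at 10 µM was −0.70 (limma adjusted p = 0.0224). DCK shares exon bases with MOB1B on the same strand, whose log2 differences were 0.31 and −0.20, and reads over the shared bases may count for either gene.

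UCK1 and UCK2 are the uridine-cytidine kinases. UCK1 (chromosome 9, 134399188 to 134406651, minus strand) measured 148729, 145506 and 140214 FPKM at 0 µM, 135843, 128775 and 142190 at 5 µM, and 84221, 139902 and 120795 at 10 µM. Values at 5 µM overlapped the controls, and every 10 µM value lay below the lowest control. Its log2 differences from 0 µM were −0.10 (SE 0.07, limma adjusted p = 0.299) and −0.36 (SE 0.19, limma adjusted p = 0.216), with 95% intervals of −0.26 to 0.07 and −0.82 to 0.09.

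UCK2 (chromosome 1, 165796851 to 165880855, plus strand) measured 275155, 263106 and 237774 FPKM at 0 µM, 136974, 146377 and 147893 at 5 µM, and 140044, 198691 and 140860 at 10 µM. Every treated culture was below every control, and the doses overlapped each other. UCK2 decreased by a log2 difference of −0.85 at 5 µM (SE 0.08, limma adjusted p = 0.000622), the smallest adjusted p among the 10 genes, and of −0.71 at 10 µM (SE 0.17, limma adjusted p = 0.0338). Both are short of 2-fold. At 10 µM UCK2 passed with all libraries and without 10 µM replicate 2, and it missed the threshold without any other single library, where limma's adjusted p ran from 0.0744 to 0.129. The libraries do not keep strand, so that reads of UCK1 and of POMT1, and of UCK2 and of TMCO1, which overlap in exons on opposite strands, cannot be told apart. POMT1 was higher by 0.46 and 0.62 at 5 µM and 10 µM, and TMCO1 differed by −0.04 and −0.20. SAMHD1 and RRM1 also overlap exons on the opposite strand, those of TLDC2 and RRM1-AS1. Neither of these is listed by that name in the data, so their reads may count for SAMHD1 and RRM1.

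CDA, cytidine deaminase (chromosome 1, 20915579 to 20945396, plus strand), inactivates 5-Aza before it is phosphorylated. Its FPKM was 155440, 150357 and 177680 at 0 µM, 381338, 322711 and 485014 at 5 µM, and 86901, 147154 and 113585 at 10 µM. None of the 3 groups overlapped, with 5 µM highest and 10 µM lowest. The gap between 10 µM and 0 µM was narrow, at 147154 in 10 µM replicate 2 against 150357 in 0 µM replicate 2. CDA rose at 5 µM by 1.28 on the log2 scale (SE 0.16, limma adjusted p = 0.00147). Between 10 µM and 5 µM it fell by 1.79 (SE 0.23, limma adjusted p = 0.00842), and against 0 µM the 10 µM difference was −0.51 (SE 0.20, limma adjusted p = 0.120). The fall from 5 µM to 10 µM missed the threshold without 5 µM replicate 1 (limma adjusted p = 0.0511) or replicate 3 (limma adjusted p = 0.0604). After scaling this fall was −1.58 (limma adjusted p = 0.00615), and the 10 µM difference from 0 µM was −0.26 (limma adjusted p = 0.238).

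DCTD, deoxycytidylate deaminase (chromosome 4, 183811213 to 183839089, minus strand), converts deoxycytidine monophosphate to the uridine form that feeds thymidylate synthesis. It measured 488230, 481854 and 399430 FPKM at 0 µM, 197396, 250086 and 204064 at 5 µM, and 190511, 286368 and 207512 at 10 µM. It was the most abundant of the 10 genes by FPKM in the controls, and no treated culture reached the lowest control. DCTD fell by 1.07 at 5 µM (SE 0.12, limma adjusted p = 0.00122) and by 1.02 at 10 µM (SE 0.18, limma adjusted p = 0.0168). The doses differed by 0.06 (limma adjusted p = 0.870, 95% interval −0.39 to 0.50). The call at 10 µM lies at the 2-fold threshold: it was lost after scaling, at −0.78, and without 0 µM replicate 1 or 2 or 10 µM replicate 1 or 3, where limma's adjusted p ran from 0.0553 to 0.0772. The call at 5 µM held after scaling and without any single library.

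SAMHD1, the deoxynucleotide triphosphohydrolase (chromosome 20, 35518632 to 35580296, minus strand), is also known as an interferon-responsive restriction factor. Its FPKM was 110225, 99334 and 59051 at 0 µM, 184150, 222455 and 221143 at 5 µM, and 75735, 163662 and 58575 at 10 µM. All 5 µM values were above those of both other groups, which overlapped, and 10 µM replicate 2 lay at more than 2 times the other 10 µM values. SAMHD1 rose at 5 µM by 1.27 (SE 0.24, limma adjusted p = 0.00774). Without 0 µM replicate 3, the lowest control, the rise was 0.99 and just under the 2-fold threshold. At 10 µM the difference from 0 µM was 0.06 (SE 0.40, limma adjusted p = 0.942), with a 95% interval of −0.89 to 1.00. Against 5 µM it was −1.21 (SE 0.36, limma adjusted p = 0.0995), and −1.65 (limma adjusted p = 0.00454) without 10 µM replicate 2. Of 15 interferon-stimulated genes set beside it, 12 were called higher and 0 lower at 5 µM, led by OAS2 (1.92), MX1 (1.87) and IFIT3 (1.85), beside 14.1% and 2.17% of all genes. At 10 µM against 0 µM 1 of the 15 was called higher (IFI44L, 1.12) and 0 lower, beside 4.07% and 3.4% of all genes. At an unadjusted limma p under 0.05, 6 were higher and 0 lower there, beside 11.3% and 24.2% of all genes. The median of the 15 in that comparison was 0.59, beside −0.15 for all genes. At 10 µM against 5 µM limma called 0 of the 15, and 0 were higher and 11 lower at an unadjusted p under 0.05, where 2.84% and 22% of all genes were.

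Ribonucleotide reductase reduces ribonucleotides to deoxynucleotides and consists of the large subunit RRM1 with either RRM2, made in S phase, or RRM2B, a p53 target. RRM1 (chromosome 11, 4115937 to 4160162, plus strand) measured 69632, 69345 and 63662 FPKM at 0 µM, 91843, 116362 and 115994 at 5 µM, and 72111, 119435 and 73267 at 10 µM. Every treated culture was above every control. RRM1 rose by 0.67 at 5 µM (SE 0.11, limma adjusted p = 0.00526), and the difference at 10 µM was 0.35 (SE 0.21, limma adjusted p = 0.280, 95% interval −0.16 to 0.85).

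RRM2 (chromosome 2, 10260825 to 10351851, plus strand) had the lowest mean FPKM of the 10 genes at every dose, at 30090, 18357 and 15842 at 0 µM, 41718, 47451 and 49922 at 5 µM, and 27900, 44319 and 24037 at 10 µM. Its 5 µM values were all above the controls, and the 10 µM group overlapped both. RRM2 rose by 1.17 at 5 µM (SE 0.25, limma adjusted p = 0.0124), and the difference at 10 µM was 0.59 (SE 0.33, limma adjusted p = 0.237, 95% interval −0.19 to 1.36). The call at 5 µM was lost without 0 µM replicate 3 (0.98) or 5 µM replicate 3 (1.11, limma adjusted p = 0.0573). Reads of RRM2 can be shared with 3 pseudogenes named after it, RRM2P2, RRM2P3 and RRM2P4, so its value is uncertain.

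RRM2B (chromosome 8, minus strand) measured 62986, 69403 and 56847 FPKM at 0 µM, 60319, 87930 and 82711 at 5 µM, and 45921, 64563 and 36817 at 10 µM. All 3 groups overlapped. Its differences from 0 µM were 0.27 (SE 0.16, limma adjusted p = 0.227, 95% interval −0.12 to 0.67) and −0.40 (SE 0.22, limma adjusted p = 0.242, 95% interval −0.92 to 0.13). Without 5 µM replicate 1 it was 0.44 at 5 µM (limma adjusted p = 0.0400), and without 10 µM replicate 2 it was −0.61 at 10 µM (limma adjusted p = 0.0341). Of 12 p53 target genes set beside it, 2 were called higher at 5 µM (CDKN1A, 1.61, and FAS, 1.58) and 2 lower (SESN2, −1.03, and BBC3), beside the 14.1% and 2.17% of all genes. Whether p53 works in these cells was not tested, and the list is not a readout of its activity. At 10 µM 1 was called lower against 0 µM (ZMAT3, −1.06) and 1 lower against 5 µM (CDKN1A, −1.25), beside 3.4% and 4.82% of all genes.

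**Figure D3:**
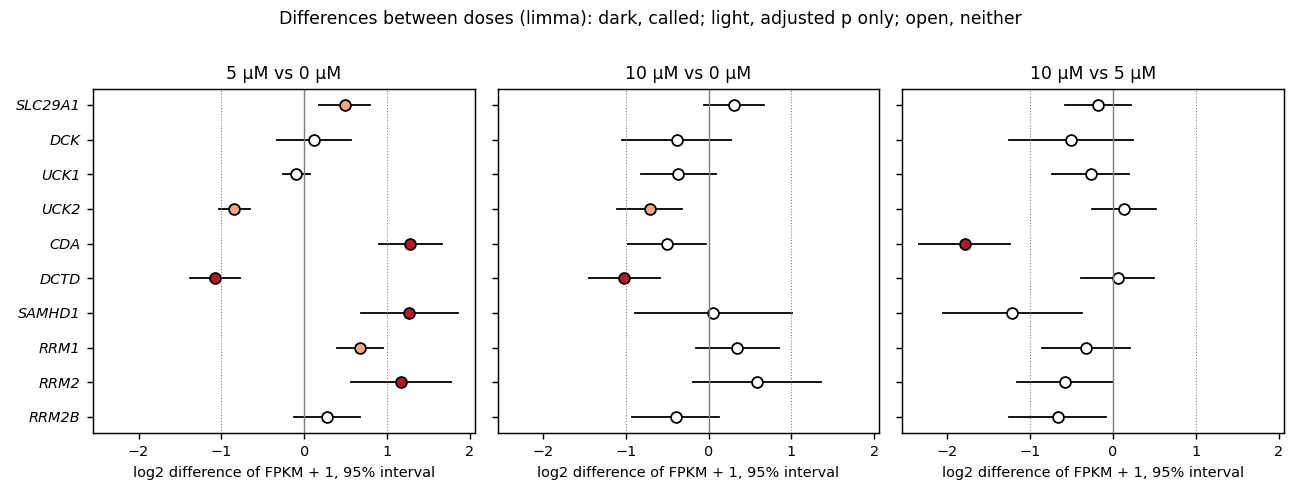
Log2 difference in FPKM + 1 (horizontal axis) of each of the 10 genes in 3 comparisons, with 95% intervals from limma as bars; dark points are called, light points pass the adjusted p alone and open points neither. UCK2 and DCTD lie below 0 at both doses, CDA and SAMHD1 lie above 0 at 5 µM, and the intervals of DCK span 0 in all 3 comparisons.

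With 10 µM replicate 2 left out, 5 members passed limma's adjusted p at 10 µM against 0 µM, all of them lower (DCK, UCK2, CDA, DCTD and RRM2B), where 2 did with all libraries. Without that library 6.69% of all genes were higher and 28% lower by this rule. Against 5 µM 5 passed, all lower (CDA, SAMHD1, RRM1, RRM2 and RRM2B), in place of 1, beside 1.11% of all genes higher and 19.9% lower. By position alone, 5 members lay wholly above and 2 wholly below the controls at 5 µM, beside 29.4% and 23.2% of all genes. At 10 µM 2 lay above and 4 below, beside 14.4% and 26.7%. Against 5 µM, 0 of the 10 µM groups lay above and 2 below, beside 4.37% and 25.3%.

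Because FPKM is scaled by length, levels can be set side by side within a dose. At 0 µM the order of the mean FPKM was DCTD (456505 ± 49531, SD, n = 3), UCK2, CDA, UCK1, SAMHD1, RRM1, RRM2B, SLC29A1, DCK and RRM2 (21430 ± 7605, SD, n = 3). Neighbours from SAMHD1 to SLC29A1 overlapped, and the rest of the order was free of overlap. At 5 µM the order began with CDA (396354 ± 82187, SD, n = 3), which lay above DCTD and SAMHD1, and those overlapped each other. At 10 µM every pair of neighbours in the order overlapped except SLC29A1 and RRM2B.

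Ratios between members within a library do not depend on how that library was scaled. The ratio of CDA to DCK, of the inactivating to the activating enzyme, was 3.23, 3.28 and 4.15 at 0 µM, 10.0, 5.23 and 9.46 at 5 µM, and 2.79, 2.73 and 4.51 at 10 µM. Only the 5 µM cultures stood clear of the controls. The ratio of SAMHD1 to DCK had means of 1.95 ± 0.494, 4.25 ± 0.621 and 2.60 ± 0.381 (SD, n = 3) at the 3 doses, without overlap between any pair of doses. The gap between 10 µM and 0 µM was narrow, at 2.33 in 10 µM replicate 3 against 2.29 in 0 µM replicate 1. DCTD to DCK went from 10.0 ± 0.602 to 4.41 ± 0.679 and 6.56 ± 1.51 (SD, n = 3), again without overlap. Here 5.31 in 10 µM replicate 2 lay close to 5.19 in 5 µM replicate 1. The ratios over DCK share its values, with a counting error of up to 9.58%, and are not independent, so that such narrow gaps are not a clear separation. UCK2 to UCK1 was 1.78 ± 0.0798, 1.06 ± 0.0669 and 1.42 ± 0.248 (SD, n = 3), so that the kinases were at nearly equal FPKM at 5 µM.

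Within ribonucleotide reductase, the ratio of RRM2 to RRM2B was 0.478, 0.265 and 0.279 at 0 µM, 0.692, 0.540 and 0.604 at 5 µM, and 0.608, 0.686 and 0.653 at 10 µM. Every treated culture was above every control, and the doses overlapped. The ratio of RRM2 to RRM1 was 0.315 ± 0.102, 0.431 ± 0.0232 and 0.362 ± 0.0304 (SD, n = 3), and both treated groups overlapped the controls. In all, 6 ratios were compared in 3 pairs of doses, which makes 18 tests. Where groups did not overlap, the exact 2-sided permutation p was 0.1, the smallest that 3 against 3 allows, and 0.129 after Benjamini-Hochberg adjustment over the 18, so that no ratio could pass 0.05.

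**Figure D4:**
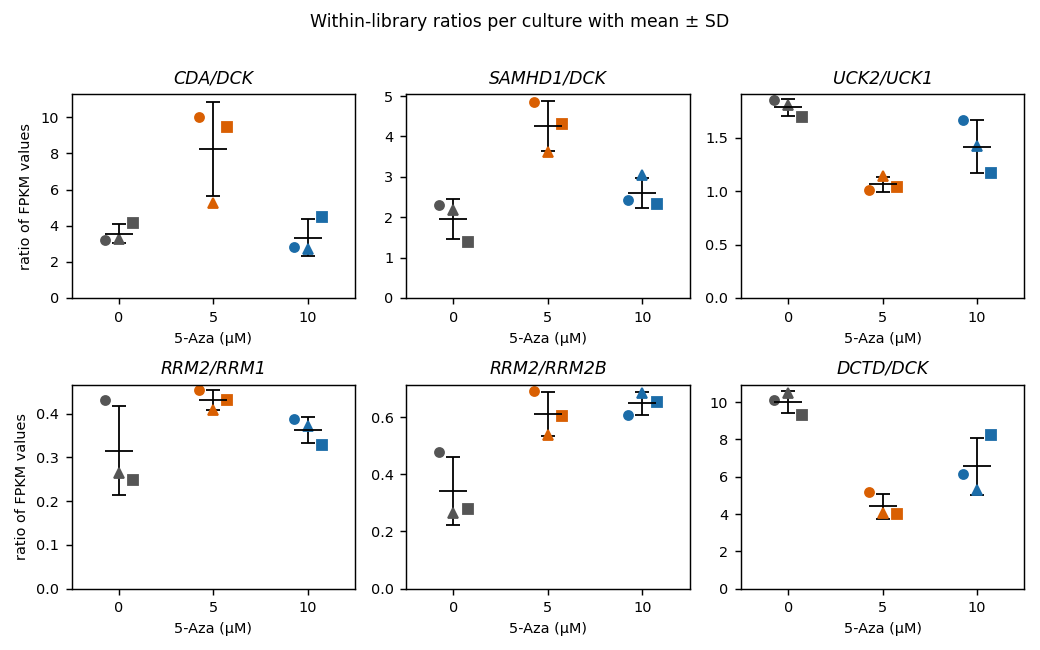
Ratio of 2 FPKM values within a library (vertical axis, linear from 0) for 6 pairs of members by 5-Aza dose in µM (horizontal axis), with 1 symbol per culture (circle, triangle and square for replicates 1, 2 and 3) and bars for the mean ± SD (n = 3). CDA to DCK and SAMHD1 to DCK are highest at 5 µM, while DCTD to DCK and UCK2 to UCK1 are lowest there.

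Another 52 genes of nucleoside transport and metabolism were in the data, of which 51 were tested. At 5 µM against 0 µM 8 were called higher and 2 lower, beside the 14.1% and 2.17% of all genes given above, with a median of −0.07. By adjusted p alone 11 were higher and 16 lower, beside 21.3% and 17.7% of all genes. By that rule 2 of 13 kinases were higher and 5 lower, and 1 of 11 nucleotidases or phosphohydrolases was higher and 5 lower. Among 6 genes of pyrimidine breakdown 4 were higher and 0 lower by limma's adjusted p alone. At 10 µM against 0 µM 0 of these 6 passed, beside 5.39% of all genes higher and 9.71% lower. At 5 µM 3 of the 6 were called higher and 0 lower, beside 14.1% and 2.17% of all genes. One of these is UPB1, which was listed at 0 in all controls and measured 342, 1619 and 160 FPKM at 5 µM, so that it could be tested only through the 5 µM values and the size of its difference is set by the pseudocount. Another is TYMP, thymidine phosphorylase, named after its value was seen, at 1.51 (SE 0.17, limma adjusted p = 0.00120). Of 6 uptake transporters, SLC29A4, the monoamine and nucleoside transporter ENT4, rose by 1.81 (SE 0.16, limma adjusted p = 0.000612), and SLC28A3, the concentrative transporter CNT3, fell by 1.56 (SE 0.22, limma adjusted p = 0.00254). SLC28A3 went from 103137, 130054 and 179066 FPKM at 0 µM to 42657, 40267 and 54421 at 5 µM. NUDT1, which removes oxidised nucleotides, rose by 1.63 and DHODH, of pyrimidine synthesis, fell by 1.39.

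At 10 µM against 0 µM, 2 of the 51 were called higher and 3 lower, beside 4.07% and 3.4% of all genes. NUDT1 stood at 2.83 times its 0 µM mean (limma adjusted p = 0.00553), and TYMS, thymidylate synthase, was higher by 1.38 (SE 0.15, limma adjusted p = 0.00497). The 10 µM values of TYMS, at 66487, 62398 and 61722 FPKM, were also above those at 5 µM, at 38359, 41890 and 41685. SLC28A3 was lower by −1.37, ADK, adenosine kinase, by −1.27 and NT5E, the surface nucleotidase CD73, by −1.15. At 10 µM against 5 µM 0 were called higher and 1 lower, UPP1, uridine phosphorylase, by −1.21 (SE 0.27, limma adjusted p = 0.0440). Of all genes 0.129% were called higher and 4.82% lower there. Of 20 S-phase and replication genes, 8 were called higher at 5 µM, beside 14.1% of all genes, led by CDC45 (2.60), CCNE2 (2.25) and CCNE1 (2.01). At 10 µM against 0 µM 9 were called higher, beside 4.07% of all genes, led by CDC45 (2.19), E2F1 (2.08) and CCNE2 (1.71). In that comparison 2 were called lower (MKI67, −1.47, and CCNA2, −1.36), beside 3.4%. Against 5 µM 3 were called lower (CDC6, CCNA2 and MKI67), beside 4.82%.

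**Figure D5:**
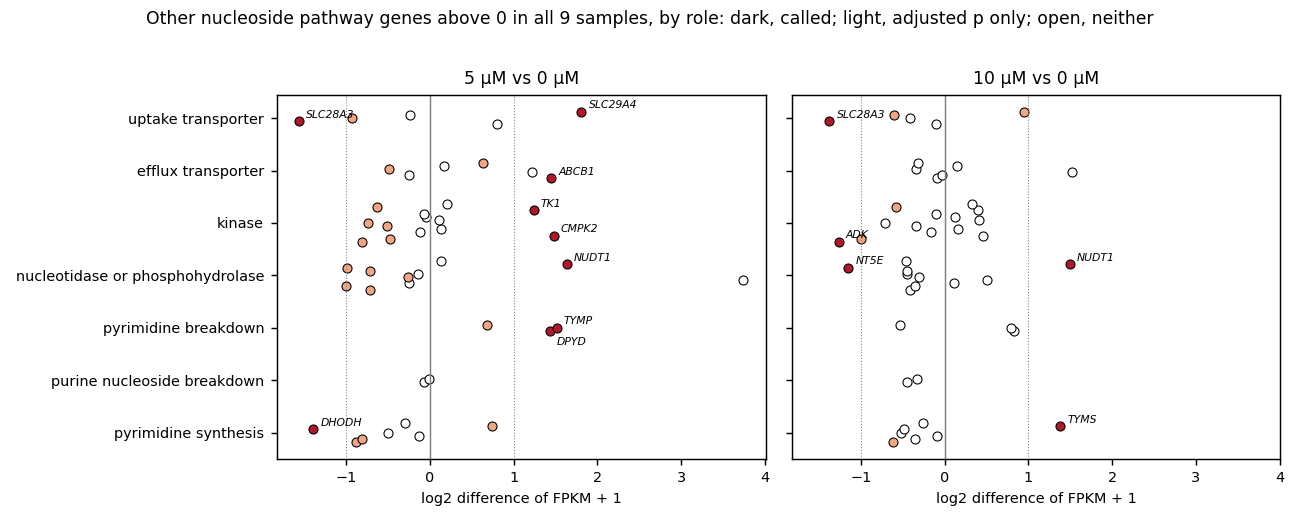
Log2 difference in FPKM + 1 of the other genes of nucleoside transport and metabolism that were above 0 in all 9 libraries, which leaves out UPB1 (horizontal axis), by role (vertical axis), at 5 µM and 10 µM against 0 µM, with called genes dark and named, genes past the adjusted p alone light and the rest open. At 5 µM the called genes are mostly on the right, with SLC28A3 and DHODH on the left, while 10 µM has 2 on the right and 3 on the left.

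The genes whose pattern over the 9 libraries was most like that of a member were named by the highest Pearson r of log2(FPKM + 1) among 10640 genes, as a description. For DCTD these were GATA6 (r = 0.996) and EIF4B (r = 0.994), and for UCK2 they were PKP4 (r = 0.995) and EIF4B (r = 0.994). For CDA they were TACC1 (r = 0.994) and PPP2R5B (r = 0.987), and for SAMHD1 they were SAMD9 (r = 0.992) and FLNA (r = 0.985). For RRM1 they were SSBP3 (r = 0.969) and FAM210B (r = 0.964), for RRM2 ELOVL7 (r = 0.972) and HERC6 (r = 0.967), and for SLC29A1 PI4KAP2 (r = 0.946) and SNX8 (r = 0.934). The libraries fall into 3 dose groups, and such values are high for any pair of genes that follow the doses in the same order.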

How the data were processed

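Paired-end RNA-Seq of 9 HT-29 cultures was analysed. The deposited values are FPKM, which the authors computed with Cufflinks after read filtering (FASTX-Toolkit) and TopHat alignment to hg19. The files hold no counts, and their library term is not given in the sources used here. Doses and replicate numbers were taken from the labels. That the replicates are separate cultures rests on the study's methods, and p-values measure only the spread between these samples.

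Values of repeated symbols were summed and transformed as log2(FPKM + 1). Genes reaching 10 FPKM in either group were tested with limma 3.58.1 (R 4.3.3; lmFit, and eBayes with a trend) on the 6 libraries of each comparison, without a replicate block. Calls required a log2 difference past 1 and a Benjamini-Hochberg adjusted p no higher than 0.05. Ratios used exact permutation tests in scipy 1.17.1, and tables pandas 2.3.3 and numpy 2.4.6. The fit was tested on simulated data. Alternatives were other pseudocounts, filters, scaling, a fit over all samples, a replicate block, limma treat and leaving out each library.

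The members and gene lists were chosen with earlier results of these data known. The text names all members. From the pathway, S-phase, interferon and p53 lists it names called genes, limited to the 3 largest rises and falls in a comparison where a list had more than 6, and for members past the adjusted p the 2 genes of most similar pattern. TYMP falls outside this rule, as do the cell type markers given with values. Depth was estimated from 46 values above 0 at 110-nucleotide microRNA genes, all 46 whole multiples of a step within 0.01, and carried to other genes by length. The step was the smallest of these values in each library, so that value is a whole multiple by definition. The library sizes of the raw data were not used here.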

Additional observations from a re-analysis of the deposited data

How the results depend on the processing

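Counts of calls moved under these alternatives. For most of them the share of all genes is not given here, so that the counts describe only how stable the calls were. With limma treat, 0 members were called at 5 µM against 0 µM and 3 of the other pathway genes, and 0 of either at 10 µM against 0 µM and against 5 µM. After median-of-ratios scaling, 0 members were called at 10 µM against 0 µM and 4 passed adjusted p alone, and 2 pathway genes were called at 10 µM against 5 µM and 8 passed adjusted p alone. In that last comparison a larger pseudocount gave 2 called pathway genes, no filter gave 0, and a fit over all 9 samples gave 8 past adjusted p alone. Neither the labels nor the study's methods say whether same-numbered cultures were paired. Deviations from the group mean correlated at −0.0743 to 0.0860 in same-numbered libraries (9 pairs) and at −0.156 to 0.1002 in others (18 pairs). With 3 libraries a group the deviations offset each other, so these values cannot decide whether the cultures were paired. With the replicate block, 0 pathway genes were called and 0 passed adjusted p alone at 10 µM against 5 µM, and 4, 1 and 1 members were called, as without it, while SLC29A1 at 5 µM no longer passed (limma adjusted p = 0.0666).

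Leaving out 1 library gave 2 to 4 members called at 5 µM against 0 µM, 0 to 1 at 10 µM against 0 µM and 0 to 2 at 10 µM against 5 µM, and 0 to 5 past adjusted p alone in both 10 µM comparisons. Of the other pathway genes it gave 3 to 7 called and 3 to 18 past adjusted p alone at 10 µM against 0 µM, and 0 to 6 and 0 to 14 against 5 µM. The sign turned only for differences near 0 among the members. Without 1 library these ran from −0.044 to 0.31 for DCK at 5 µM, from −0.38 to 0.36 for SAMHD1 at 10 µM against 0 µM, and, against 5 µM, from −0.033 to 0.22 for UCK2 and from −0.12 to 0.17 for DCTD, while SLC29A1 was 0.023 there after scaling. The cause of these changes was not tested, beyond the smaller number of libraries. Of the recomputed ratio differences 1 turned sign, CDA to DCK at 10 µM against 0 µM without 10 µM replicate 2 (0.0073). Depth limits CDA and RRM2 most, with a counting error of up to 10.1% and 10.0%, and with 3 libraries a group the intervals of DCK and RRM2B at 10 µM reach from a fall near or past 2-fold to a small rise.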
